A study of Mus musculus with 2 samples.

Results

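The Ly6 genes described here are 6 members of the lymphocyte antigen 6 family of the mouse: Ly6a, Ly6c1, Ly6c2, Ly6e, Ly6i and Ly6d. They were found by symbol among the 32285 genes of the count matrix, and 6 of 6 were present. Cells had been grown for 14 days in methylcellulose from dissected aortas (2 males of strain C57BL/6J, age 12 weeks), without further genetic or drug treatment named in the labels, and the colonies, labelled as colony-forming units of macrophages (CFU-M), were pooled for 1 gene expression library. There is thus 1 sample and no replicate: intervals below cover counting error alone, and no p-value is given. The matrix also held 3 MULTI-seq tags, lipid-anchored oligonucleotides that mark cells of one origin before pooling. The tags are named Cafum, Matrigel and Macrophages, and what each marked is not given in the sources used here. A separate MULTI-seq tag library was not analysed here.

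Ly6 proteins are small, three-fingered, usually held at the outer cell surface by a glycosylphosphatidylinositol (GPI) anchor. Ly6a encodes Sca-1, a surface marker of mouse haematopoietic stem and progenitor cells and of adventitial stromal progenitors in the vessel wall. Ly6e encodes a widely expressed, interferon-induced member. Ly6c1 and Ly6c2 encode the Ly6C antigens, of which Ly6c2 is the form of inflammatory monocytes, and Ly6c1 is well known from endothelial and stromal cells. Ly6d marks early B lineage cells and some epithelial cells, and Ly6i is a less studied relative of Ly6a. Several members, Ly6a and Ly6e among them, respond to interferons.

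The library held 34813 barcodes and 593248944 gene UMIs (unique molecular identifiers, each standing for 1 captured RNA molecule). After filters and removal of 4726 barcodes called doublets in the whole matrix, 29285 cells remained, with a median of 12485 UMIs and 3424 detected genes. They were clustered without the 6 members and without any listed gene. By markers, 21314 cells were called mast cell-like, 5143 cells fibroblast-like and 2531 cells macrophage-like, and 297 cells of 3 small clusters were left unnamed. The label names macrophage colonies, yet mast cell markers defined most cells: Cpa3, a mast cell protease, had 17921 UMIs per 1000000 gene UMIs (CPM) in that class. Mast cell RNA was also found in every other class, and the 7 mast cell markers summed to 60717 CPM in the mast cell-like class, 7964 in the fibroblast-like and 18563 in the macrophage-like one. Cdh5, the endothelial cadherin, had 4 UMIs in all mast cell-like cells. The animals are labelled male, but 53.1% of the mast cell-like cells deep enough to compare carried UMIs of Xist, the RNA of the inactive X chromosome, and none of Y-linked genes, while 13.5% carried the reverse.

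Of cells with a single tag, Cafum was called in 16258 (97.8% mast cell-like), Matrigel in 2707 (93.4% fibroblast-like) and Macrophages in 2005 (92.9% macrophage-like). Tag and class thus nearly coincide, and an effect of what a tag marked cannot be told apart from cell type except in the smaller mixed groups given below. More than 1 tag was found in 2593 cells, and none in 5722.

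The members lie on chromosome 15 of GRCm38 (mm10), in a stretch of 350 kb with 13 protein-coding genes. From the centromere outwards they are Ly6d (ENSMUSG00000034634, 74762056 to 74763620), Ly6e (ENSMUSG00000022587, 74955051 to 74959905), Ly6i (ENSMUSG00000022586, 74979534 to 74983430), Ly6a (ENSMUSG00000075602, 74994877 to 74998031), Ly6c1 (ENSMUSG00000079018, 75044018 to 75048830) and Ly6c2 (ENSMUSG00000022584, 75108158 to 75111970). Ly6e is on the plus strand and the other 5 on the minus strand, and no annotated gene overlaps any of them. The library was read from the 3′ end. Of the 90-base stretches in the last 500 bases of transcripts, 13.8% of those of Ly6c1 also occur in Ly6a or Ly6c2, and 19.3% of those of Ly6c2 also occur in Ly6c1, so a few of their reads could have been lost as ambiguous. No such stretch from the end of Ly6a, Ly6e, Ly6i or Ly6d was found in another gene, since the Ly6a matches of Ly6c1 lie outside the last 500 bases of Ly6a transcripts.

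Ly6c1 and Ly6c2 share stretches of sequence, and their levels were highest in different classes, so their start regions are shown here side by side. The RefSeq table of GRCm38.p6 held windows for these 2 of the 6 members, each from 250 bases before to 50 bases after a transcript start, 5′ to 3′ on the gene's own (minus) strand. Capitals mark GAGGAAGT, an ETS-type motif of the kind bound by the myeloid factor PU.1. The windows are chr15:75048788-75049087 for Ly6c1 and chr15:75111922-75112221 for Ly6c2.
Ly6c1: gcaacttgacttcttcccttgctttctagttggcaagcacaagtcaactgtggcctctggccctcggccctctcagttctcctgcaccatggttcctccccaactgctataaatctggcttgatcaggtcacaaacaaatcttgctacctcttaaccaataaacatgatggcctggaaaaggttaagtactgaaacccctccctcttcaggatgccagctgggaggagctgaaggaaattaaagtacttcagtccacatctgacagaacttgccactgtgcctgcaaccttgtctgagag
Ly6c2: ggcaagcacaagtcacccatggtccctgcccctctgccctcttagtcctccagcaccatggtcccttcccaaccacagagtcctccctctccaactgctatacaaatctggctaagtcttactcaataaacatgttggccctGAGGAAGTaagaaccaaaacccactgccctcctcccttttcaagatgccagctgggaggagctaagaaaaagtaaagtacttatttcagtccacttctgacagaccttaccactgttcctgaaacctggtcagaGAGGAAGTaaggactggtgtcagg

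The printed windows could be aligned over 266 pairs of bases, of which 208 (78.2%) were identical, with 68 gap columns. On either strand, GAGGAAGT occurred 2 times in the Ly6c2 window, with its first bases at -108 and 26, counted with the first transcribed base as 0, and 0 times in the Ly6c1 window. A second Ly6c1 window, from another annotated start, held 1 match, at -127, and a second Ly6c2 window held 2, at -142 and -8. Each second window overlaps the printed one. The Ly6c1 match begins in the last bases of the printed window, whose end cuts it, so the 0 there does not show that Ly6c1 lacks the motif. The 2 matches of the second Ly6c2 window are the same 2 sites as in the printed one. Among all 32851 windows of this length, 3.20% held the motif. The STAT-type motif TTCNNNGAA (8.30% of all windows), also searched on either strand, had no match in the 4 windows of the pair. A match is a run of letters and not a shown binding site.

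The class levels separated the members. Ly6a was highest in mast cell-like cells, Ly6e in macrophage-like cells and Ly6c1 in fibroblast-like cells. Ly6c2 was found in 48 cells, 26 of them macrophage-like, and Ly6i and Ly6d were below 1 CPM in all 3 classes. Only genes with at least 5 CPM in one of the classes compared were read for a fold of 2 or more. Macrophage-like over mast cell-like, this left Ly6a, lower, and Ly6e, higher, beside 18% of 10533 genes higher and 11.9% lower. Fibroblast-like over mast cell-like, Ly6e and Ly6c1 were higher and Ly6a stayed within 2-fold, beside 23.9% of 11331 genes higher and 15% lower. Fibroblast-like over macrophage-like, Ly6a and Ly6c1 were higher and Ly6e lower, beside 20.1% of 11511 genes higher and 17.4% lower. Differences past 2-fold were thus common among all genes of these classes.

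**Figure D1:**
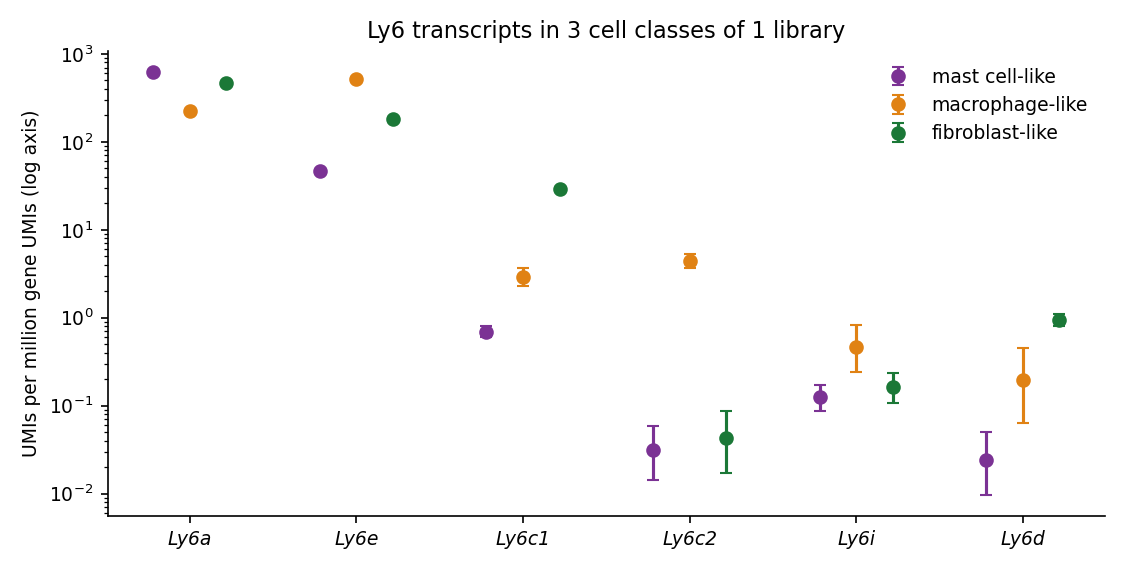
CPM (UMIs per 1000000 gene UMIs, log axis) of the 6 Ly6 genes in the 3 named cell classes of the library, with exact Poisson 95% intervals. Ly6a lies at 622 in mast cell-like cells, Ly6e at 519.9 in macrophage-like cells and Ly6c1 at 29.1 in fibroblast-like cells, while Ly6i and Ly6d stay below 1 in all 3 classes.

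Ly6a (Sca-1) had 622 CPM in mast cell-like cells (95% interval 619 to 625, from 179491 UMIs), 466 in fibroblast-like cells (462 to 469) and 224 in macrophage-like cells (218 to 230). To compare shares of cells at 1 depth, each cell was thinned to 5500 UMIs, which left out 2340 shallower cells. A Ly6a UMI was then found in 67.4% of mast cell-like, 69.5% of fibroblast-like and 35.2% of macrophage-like cells. Unthinned, the shares were 80.0%, 91.0% and 43.7% at median depths of 11306, 31009 and 8435 UMIs. The thinned shares of mast cell-like (66.7% to 68.0%) and fibroblast-like cells (68.1% to 70.7%) lay close, and macrophage-like cells were lower on both measures.

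Mast cell RNA moved with Ly6a in the macrophage-like cells. Their Ly6a level was 0.360 of the mast cell-like level (0.351 to 0.370), and the same ratio for the 7 mast cell markers ran from 0.272 to 0.352. The Ly6a ratio thus lay just above the range of the markers, with the lower end of its interval inside it. As a mean over single cells, a measure unlike the summed counts behind the marker range, the Ly6a ratio was 0.237. At 5500 UMIs, Ms4a2, a chain of the mast cell IgE receptor, was found in 40.9% of macrophage-like cells. The mast cell markers Tpsb2 and Cma1 were found in 79.4% and 99.6% of them. The Ly6a share of 35.2% there is not read as expression by macrophages, and its source was not tested. In the 1862 macrophage-like cells with the Macrophages tag alone, Ly6a was 101 CPM (95.8 to 106). That is 0.165 of the level in mast cell-like cells with the Cafum tag alone, inside the range of the markers (0.126 to 0.173). In the 605 macrophage-like cells with more than 1 tag, Ly6a reached 439.7 CPM. Per 1000 mast cell marker UMIs, mast cell-like cells held 10.2 Ly6a UMIs, macrophage-like cells 11.6 with the Macrophages tag alone and 12.2 with more than 1 tag. Ordered by mast cell RNA into 4 equal parts, macrophage-like cells had Ly6a levels of 34.4, 42.9, 174 and 475 CPM, beside 1882, 2957, 11666 and 41610 CPM of the markers. Counted in the same way these parts held 18.3, 14.5, 14.9 and 11.4 Ly6a UMIs, most where mast cell RNA was lowest. The parts held 16, 23, 104 and 462 cells with more than 1 tag.

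Fibroblast-like cells differed from this pattern. Their Ly6a level was 0.749 of the mast cell-like level, where the 7 mast cell markers had ratios from 0.121 to 0.142. Per 1000 mast cell marker UMIs they held 58.5 Ly6a UMIs, and 154 in the 2529 cells with the Matrigel tag alone. Across their 4 parts by mast cell RNA, Ly6a was 401, 469, 484 and 521 CPM while the markers went from 1070 to 22270. In the part with least mast cell RNA, Ly6a was therefore still 401 CPM. Over tags, mast cell-like cells had 609 CPM with Cafum alone, 625.5 with Matrigel alone (57 cells) and 876 with Macrophages alone (97 cells). By tag, fibroblast-like cells had a Ly6a level of 509.5 CPM with Matrigel alone, 442 with Cafum alone (314 cells), 325 with no tag (1073 cells) and 280.2 with Macrophages alone (43 cells, 252.8 to 309.7).

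**Figure D2:**
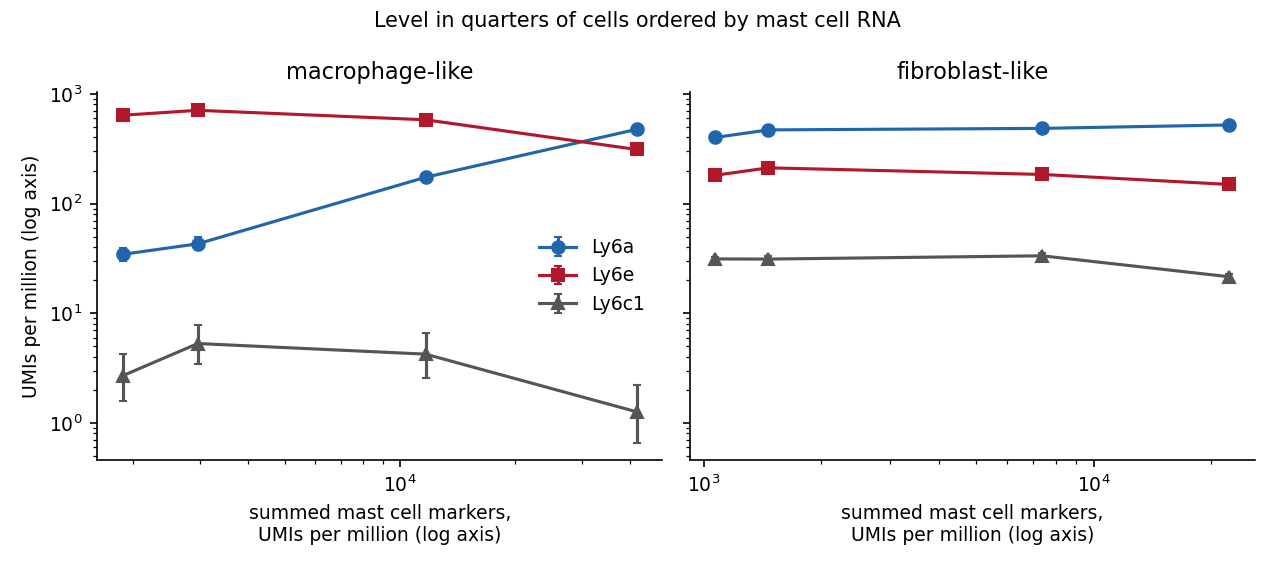
Ly6a, Ly6e and Ly6c1 in CPM (log axis) in 4 equal parts of each of 2 classes (macrophage-like left, fibroblast-like right), against the summed level of 7 mast cell markers in each part (log axis), with exact Poisson 95% intervals. Ly6a climbs from 34.4 to 475 with mast cell RNA in macrophage-like cells and goes from 401 to 521 in fibroblast-like cells, and Ly6e goes from 638 to 311 in macrophage-like cells.

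Ly6a varied among the 6 mast cell-like clusters. It was highest in cluster 1, led by Gm49457 and marked by Slc6a4, the serotonin transporter, at 1104 CPM (1095 to 1113), and next in cluster 0, led by Ctsg, cathepsin G, at 667 (662 to 673). The dividing clusters 6 (Cenpa) and 7 (histone genes) had 469.8 and 387. Clusters 4 and 3, both with Mrgprb1, a receptor of the mast cell Mrgpr family, had 452.5 and 346. In this order, clusters 6 and 4 are neighbours whose intervals (463 to 477 and 445 to 460) do not overlap, nor do those of any other pair of the 6, although no replicate shows how far clusters would vary between libraries. The small unnamed cluster 8, led by Calca, had 1016 (962 to 1072). Its cells were shallow, with a median of 3536 UMIs.

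**Figure D3:**
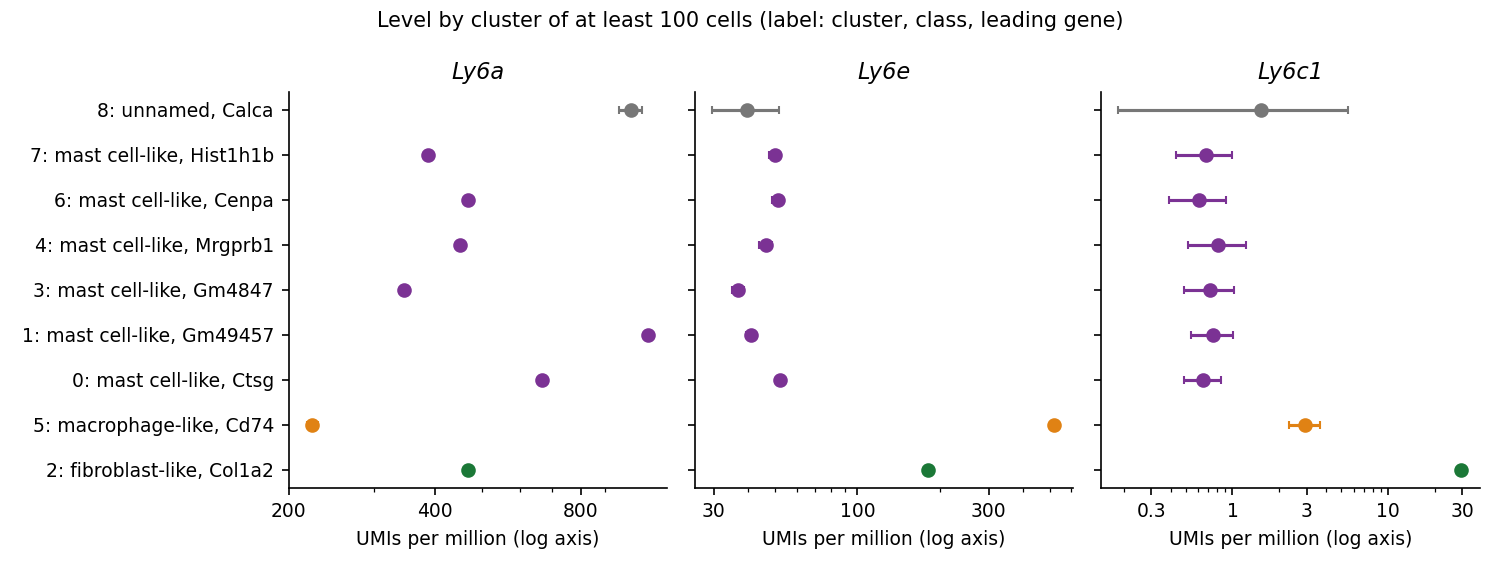
CPM (log axes) of Ly6a, Ly6e and Ly6c1 in the 9 clusters of at least 100 cells, each labelled by its number, class and leading gene, with exact Poisson 95% intervals. Ly6a runs from 346 to 1104 over the mast cell-like clusters, while Ly6e keeps to 36.8 to 52.4 in them.

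Within a class, Ly6a was spread very unevenly over cells. At 5500 UMIs a mast cell-like cell held a mean of 3.71 Ly6a UMIs and a variance 7.20 times the mean. Cells with 0 made up 32.6%, against 2.46% in a Poisson distribution of the same mean, and 12.2% of cells held 10 or more, up to 47. Fibroblast-like cells had a mean of 2.78, a variance 5.14 times the mean and 30.6% of cells at 0 (Poisson 6.18%). Kit, the stem cell factor receptor of mast cells and progenitors, was found in 99.1% of mast cell-like cells at this depth, and Kit and Ly6a were found together in 66.9% of them (66.2% to 67.5%). Kit, Ly6a and Cd34, a further progenitor and mast cell surface gene, were found together in 20.96%. Mast cell-like cells held a Cd34 UMI in 31.3% of those with Ly6a and 29.1% of those without. Depth moved with the level: in 4 equal parts of the mast cell-like cells by UMI count, Ly6a was 964, 729, 594 and 512 CPM from shallow to deep. The part of depth in the uneven spread was not tested.

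**Figure D4:**
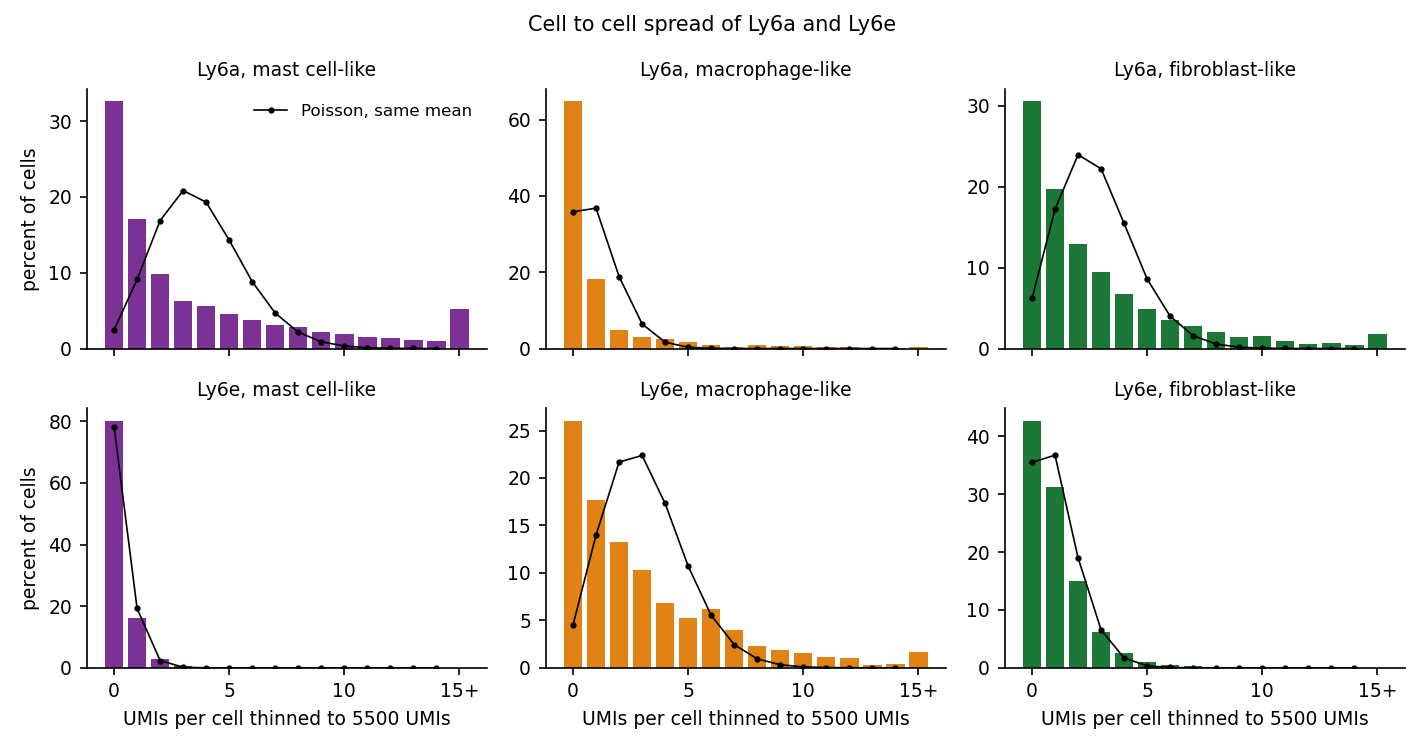
Percent of cells by number of Ly6a UMIs (upper row) or Ly6e UMIs (lower row) per cell at 5500 UMIs, in each of the 3 classes, with 15 or more in the last bar and the Poisson distribution of the same mean as a black line. Ly6a is at 0 in 32.6% of mast cell-like cells, where the Poisson line starts at 2.46%, and Ly6e in mast cell-like cells lies near its line.

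Mast cell-like cells with most and with least Ly6a were then set side by side within each cluster: its cells with at least 5500 UMIs were ordered by the share of Ly6a among their UMIs and divided into 4 equal groups, of which the top and the bottom were compared. Ctsg, a granule serine protease, was at least 2-fold higher in the top group in 6 of 6 clusters. This also held within cells of the Cafum tag alone. In cluster 0 Ctsg had 986 CPM in the top and 308 in the bottom group, and in cluster 3, where it was lowest, 67.1 and 28.4. The log2 ratio, with 1 CPM added to both sides, ran from 1.21 to 1.74. Ctsg alone did so in 6 of 6 clusters, among the 8426 genes tested in all of them. Over all genes tested in any of the clusters, 82 did so in at least 1. In clusters 0, 1, 3, 4, 6 and 7, 0.27%, 0.401%, 0.116%, 0.186%, 0.181% and 0.16% of the genes tested were 2-fold or more higher.

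A few interferon-induced genes went with Ly6a in some mast cell-like clusters. Among genes of the interferon alpha/beta response list with at least 5 CPM over all cells of the cluster, 2 of 6 were 2-fold or more higher in cluster 0, 1 of 7 in cluster 1, 0 of 6 in clusters 3 and 4, 0 of 5 in cluster 6 and 1 of 5 in cluster 7. The shares over all genes at that minimum were 0.187%, 0.271%, 0.0756%, 0.112%, 0.141% and 0.12%. No gene of the gamma list passed in any of the 6. Outside the lists, Ifitm1, an antiviral membrane protein, passed 2-fold in 4 of 6 clusters, with log2 ratios from 0.54 to 2.42 over all 6. In cluster 0 Ifitm1 had 82.3 CPM in the top and 14.5 in the bottom group. Isg15, a ubiquitin-like interferon-induced protein, had 18.8 and 4.93 in cluster 1 but 7.03 and 4.98 in cluster 3. Kit was higher by 0.20 to 0.37 on the log2 scale, and 0 of the 7 mast cell markers passed 2-fold in any cluster. Smpx, a small muscle protein gene, went the other way, with log2 ratios from -1.89 to -0.86. Xist was lower in the top group of clusters 0, 1, 6 and 7 (log2 ratios from -1.20 to -0.76) and near 0 in clusters 3 and 4, and its part in these differences was not tested. Across the mast cell-like cells with at least 5500 UMIs, Ly6a had 493 CPM with Xist and no Y-linked UMI and 647 with Y-linked and no Xist UMI. It had 944 in cells with neither and 515 in cells with both. The first 2 of these 4 Ly6a values were 449 and 551 in the fibroblast-like class, and 218 and 254 in the macrophage-like class. For Ly6e the macrophage-like class had 547.5 and 519.9, the fibroblast-like class 199 and 157, and the mast cell-like class 44.95 and 47.7, in the order of classes seen in all cells.

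**Figure D5:**
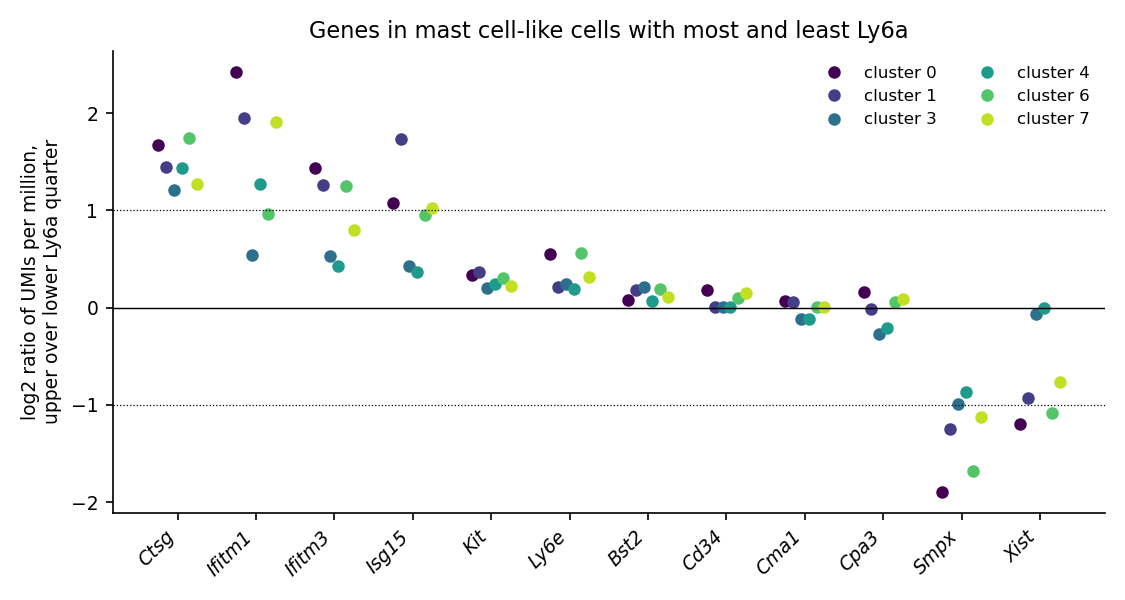
Log2 ratio of CPM (1 added) between the top and bottom group of cells (of 4 equal groups by Ly6a), for 12 genes in 6 mast cell-like clusters (1 point each), with dotted lines at 2-fold. Ctsg lies above the upper line in 6 of 6 clusters, between 1.21 and 1.74, and Kit between 0.20 and 0.37.

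Fibroblast-like cells with much Ly6a held more RNA of several interferon-induced genes. The top group (1238 cells) had a Ly6a level of 1303 CPM and the bottom group 36.9. Ly6c1 had 82.9 CPM in the top and 5.66 in the bottom group. Hp, haptoglobin, had 202 and 39.6, Serpina3m, a protease inhibitor, had 65.1 and 12.0, and Ifit1, an interferon-induced RNA-binding protein, had 40.4 and 9.25. The highest ratios for the bottom group included Chrm3, the muscarinic receptor M3, with 18.5 in the top and 163 in the bottom group, and Grm7, a glutamate receptor, with 10.1 and 82.4. Counts over genes are given here for those at 5 CPM or more over all cells split, so that the high group alone does not bring a gene in. Of 10603 such genes, 0.745% were 2-fold or more higher in the top group and 1.19% lower. In the alpha/beta list 8 of 14 were higher, with a median log2 ratio of 1.10, and in the gamma list 1 of 6 with 0.67, where the median of all genes was -0.08. With the minimum reached in either group, 0.816% of 10906 genes were higher and 1.59% lower. None of 14 genes of GPI anchor synthesis passed 2-fold. Mast cell markers moved in the same direction: 7 of 7 were higher, 1 of them by 2-fold or more, with summed levels of 9508 and 5259 CPM and a median log2 ratio of 0.82, while the 7 macrophage markers were each lower (52.3 and 89.96 CPM summed). Of 5 adipocyte markers 4 were higher (593.5 and 430 CPM summed, Lep at 0), as were 9 of 9 endothelial markers (39.9 and 27.2). The 5 smooth muscle markers (52.0 and 96.6) and the 5 neutrophil markers (3.46 and 8.66) were each lower. Of 5 mesothelial markers 3 were lower and 2 higher (11.4 and 28.8). The part of all these cells in the differences was not tested. More than 1 tag was found in 320 cells of the top and 189 of the bottom group. Within cells of the Matrigel tag alone, 7 of 14 genes of the alpha/beta list were higher (0.987% of all genes, 1.93% lower), with a median mast cell marker log2 ratio of 0.90. Within the largest fibroblast-like cluster at a finer resolution, 7 of 14 were higher (0.65% of all genes, 0.497% lower).

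In another finer cluster of fibroblast-like cells, with Dlk1 and Chrm3, 9 of 14 genes of the alpha/beta list were higher (2.22% of all genes, 4.72% lower). In one led by Cfd and Adipoq, both adipocyte genes, 6 of 14 were higher (4.04%, 9.14% lower). At the finer resolution that cluster was left unnamed because adipocyte markers were among its leading genes. Only its cells of the fibroblast-like class were split. In that largest cluster, Cxcl13, a chemokine for B cells, had 106 CPM in the top and 3.75 in the bottom group by Ly6a. In the cluster led by Cfd and Adipoq, Cxcl13 had 38.9 in the top and 376 in the bottom group. Each of these Cxcl13 levels rests on few cells, and 5 cells held from 42.8% to 88.3% of the UMIs of a group, so no difference between clusters is read from them. Ly6c1 was higher in the top group in 3 of 3 finer clusters of fibroblast-like cells compared, with 53.6 against 5.61, 142 against 5.04 and 163 against 7.46 CPM. Levels of Ly6a itself were 433 in the largest finer cluster, 503 in the one with Dlk1 and Chrm3 and 772 in the one with Cfd and Adipoq. Median depths of these clusters were 31139, 40124.5 and 11193 UMIs. In 4 equal parts of the fibroblast-like cells by UMI count, Ly6a went from 617 CPM in the shallowest to 407.5 in the deepest. The part of depth in the cluster levels was not tested.

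Ly6e was highest in macrophage-like cells, at 519.9 CPM (511 to 529), against 181 (179 to 183) in fibroblast-like and 46.7 (45.9 to 47.5) in mast cell-like cells. The macrophage-like level was 11.1 times the mast cell-like one (10.9 to 11.4), and the fibroblast-like level 3.87 times (3.796 to 3.954). At 5500 UMIs, a Ly6e UMI was found in 74.0% of macrophage-like, 57.3% of fibroblast-like and 19.8% of mast cell-like cells (unthinned 79.2%, 91.4% and 37.1%). No interval overlapped another, on either measure. The 6 mast cell-like clusters lay between 36.8 and 52.4 CPM. Ly6e was lowest in the part with most mast cell RNA, although it did not fall steadily: over the 4 parts macrophage-like cells had 638, 708, 580.3 and 311 CPM, and fibroblast-like cells 181, 212, 184 and 149. It was 625 (613 to 637) with the Macrophages tag alone and 346 (334 to 358) with more than 1 tag. Fibroblast-like cells had 199.6 with the Matrigel tag alone and 133 with the Cafum tag alone.

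Within the macrophage-like cells of the Macrophages tag alone, cells with much and with little Ly6e differed in many genes. The top group (344 cells) had a Ly6e level of 1555 CPM and the bottom group 35.5. Lyve1, Folr2 and Timd4, surface genes of resident tissue macrophages, had 903, 1077 and 250.1 CPM in the top group and 241, 315 and 58.5 in the bottom group. Of 9673 genes at 5 CPM or more over these cells, 3.46% were 2-fold or more higher and 5.64% lower. In the interferon alpha/beta list 7 of 16 were higher, with a median log2 ratio of 0.88. Genes of the Ly6C-high monocyte list went both ways, with 4 of 8 higher, 2 lower and a median of 0.91. F13a1, the A chain of coagulation factor XIII, had 3865 CPM in the top and 1420 in the bottom group, Plac8 55.8 and 9.31, Ms4a4c 13.3 and 5.82, and Chil3 5.55 and 0. Over all cells of this split Chil3 had 9.91, more than in the top group, so it did not rise steadily with Ly6e. Ccr2, the monocyte chemokine receptor, had 86.4 and 237, and Fn1, fibronectin, 86.4 and 303. Mmp12, a macrophage elastase, had 0.308 in the top and 105 in the bottom group, and Dcstamp, a gene of macrophage fusion, 0.617 and 35.8, with 72.6% and 86.2% of the bottom group's UMIs in 5 cells. Markers of this and other cell types moved with Ly6e as well. The 7 macrophage markers were each higher, with sums of 13453 and 8299 CPM. The 7 mast cell markers were each 2-fold or more lower in the top group, with summed levels of 3463 and 11864 CPM, and their part in the differences was not tested. The neutrophil markers summed to 147 and 1.75 CPM (3 of 5 higher, Camp and Ngp at 0). Of the 2497 UMIs of Hbb-bs, a haemoglobin chain, in the top group, 1 cell held 2469, and 5 cells held 100% of the UMIs of S100a8, a neutrophil and monocyte gene. Without the 4 cells that held 10 or more UMIs of Hbb-bs, S100a8 or S100a9, Lyve1 had 907 against 241 CPM, Timd4 253 against 58.5 and Ccr2 87.5 against 237, close to the values with them.

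Fibroblast-like cells with much Ly6e held more RNA of interferon-induced genes. The top group had a Ly6e level of 411 CPM and the bottom group 39.04. Ifit3 had 40.1 and 4.17, Isg15 had 82.1 and 16.03, and Irf7, a transcription factor of the interferon response, 21.1 and 4.07. Among genes at 5 CPM or more over all cells split, 11 of 14 of the alpha/beta list were 2-fold or more higher, with a median log2 ratio of 1.75, beside 0.538% of 10603 genes higher and 0.236% lower (0.676% of 10800 higher with the minimum reached in either group). In the gamma list 2 of 6 were, with a median of 0.81. Of the 4 alpha/beta genes in the matrix below that minimum, Rsad2 had 8.55 and 0.735, Ifit3b 5.57 and 0.539, Oas1a 5.27 and 1.57 and Cmpk2 2.90 and 0.466. Within the Matrigel tag alone, 11 of 14 of the alpha/beta list were higher (0.522% of all genes, 0.541% lower). Markers of other cells moved with Ly6e here too. The 7 mast cell markers were each lower, with sums of 6226 and 9695 CPM and a median log2 ratio of -0.64 (-0.34 within the Matrigel tag), where they had been higher with Ly6a. The 7 macrophage markers were each higher (87.1 and 41.9 CPM summed), as were 4 of 5 adipocyte markers (652 and 364, Lep at 0) and 4 of 5 neutrophil markers (4.82 and 1.45). The part of these cells in the interferon counts was not tested.

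Ly6c1 was a gene of the fibroblast-like cells, with 29.1 CPM (28.3 to 29.9, from 4800 UMIs) against 2.93 (2.31 to 3.67) in macrophage-like and 0.693 (0.6001 to 0.7958) in mast cell-like cells. The fibroblast-like level was 42.0 times the mast cell-like one (36.5 to 48.6). At 5500 UMIs it was found in 10.9% of fibroblast-like cells and 0.418% of mast cell-like cells, and unthinned in 29.4% and 0.915%. Its UMIs were uneven, with 94 fibroblast-like cells at 10 or more and a highest count of 87. Matrigel-tagged fibroblast-like cells had 37.7 CPM and Cafum-tagged ones 13.9, a ratio of 2.72 (2.29 to 3.24). Within the largest finer fibroblast-like cluster the values were 28.6 (27.1 to 30.1) and 14.0 (11.7 to 16.6). Cells of that cluster had 12.7 with no tag (899 cells) and 5.73 with the Macrophages tag alone (37 cells). These intervals take UMIs as independent, while Ly6c1 at 5500 UMIs had a variance 2.55 times its mean over fibroblast-like cells. They thus do not cover the spread between cells, and no difference between tags is read from them. Ly6c1 and Ly6a were found together in 483 fibroblast-like cells where independence gives 374, a ratio of 1.29 (1.19 to 1.41) with a possible maximum of 1.44. Fibroblast-like cells with a Ly6c1 UMI (1490) and without one (3465) differed by 2-fold or more upwards in 0.0943% and downwards in 0.066% of 10603 genes at 5 CPM or more over all of these cells, and 0 of 14 genes of the alpha/beta list passed. A split by the presence of a UMI is unlike the top and bottom groups used for Ly6a and Ly6e, so their list counts are not compared. Cfd, complement factor D of fat cells, had 54.2 CPM with and 6.69 without Ly6c1, and Adipoq, adiponectin, had 14.9 and 2.70. These 2 rest on few cells: 5 cells held 61.5% of the Cfd UMIs and 53.3% of the Adipoq UMIs on the Ly6c1 side. Hp had 209 and 71.9, with 36.5% of its UMIs on that side in 5 cells.

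Ly6c2, the Ly6C gene of monocytes, had 113 UMIs (4.42 CPM) in macrophage-like cells, against 7 (0.0424) in the fibroblast-like and 9 (0.0312) in the mast cell-like ones. The UMIs of the macrophage-like cells lay in 26 of 2531 cells, and the 5 cells with most held 60.2% of them. In the 16 macrophage-like cells with at least 2 Ly6c2 UMIs, monocyte genes were also high. Plac8 had 1028 CPM in them and 19.5 in the other macrophage-like cells, Chil3 had 625 and 0.748, and Ccr2 had 344 and 122. Mrc1, the mannose receptor of tissue macrophages, had 1706 and 3015, and Csf1r, the receptor of the macrophage growth factor, 561 and 526. These are a handful of cells, so the values describe them alone. A further 44 Ly6c2 UMIs were in the 51 cells of unnamed cluster 9, which carried lymphocyte genes such as Ccl5 and Igkc.

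Ly6d had 156 UMIs in fibroblast-like cells, 7 in mast cell-like and 5 in macrophage-like cells, and 1 fibroblast-like cell held 114 of the 156. Unnamed cluster 9 held 76 Ly6d UMIs, or 157 CPM, in 9 cells. Those 9 cells had 872 CPM of Cd79a, a chain of the B cell receptor, and 1475 of Ebf1, a B lineage transcription factor, against 0 and 19.6 in the other unnamed cells. Fibroblast-like cells with at least 2 Ly6d UMIs, also 9, had 0 UMIs of Cd79a. Ly6i was found in 71 cells of all classes, of which 68 held 1 UMI, and its 75 UMIs gave 0.469 CPM in the macrophage-like class, 0.164 in the fibroblast-like and 0.125 in the mast cell-like one. The Ly6i intervals of the 2 lower classes overlap.

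Other genes of the family, and the listed neighbours, were low. Besides the 6 members, 14 genes have a symbol that begins with Ly6, and with listed neighbours 25 were examined, which leaves some genes of the stretch out. At least 1 CPM was reached by Ly6g6d in macrophage-like cells (1.21), and in fibroblast-like cells by Lynx1 (10.3), Ly6k (2.76), Arc (1.30) and Jrk (1.27). Them6 reached it among unnamed cells alone.

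Genes of the interferon response lists were mostly higher outside the mast cell-like class. Counts here are over genes whose mean over both classes compared was at least 5 CPM. In the interferon alpha/beta list, 9 of 13 genes were 2-fold or more higher in macrophage-like than in mast cell-like cells (median log2 ratio 1.32), beside 16.9% of all genes, and 7 of 13 in fibroblast-like cells (2.24), beside 21.3%. Lower by 2-fold or more were 11.4% and 14.7% of all genes. The medians of all genes were -0.18 and -0.02. Isg15 had 38.4 CPM in fibroblast-like, 19.8 in macrophage-like and 7.33 in mast cell-like cells, and Bst2, tetherin, a GPI-anchored antiviral protein, had 164, 156 and 136. In the interferon gamma list, 9 of 11 genes were higher and 1 lower in macrophage-like cells, and 3 of 5 higher and 1 lower in fibroblast-like cells. Irf1, a transcription factor induced by interferon gamma, had 30.3 CPM in fibroblast-like, 162 in macrophage-like and 8.47 in mast cell-like cells, while Socs1, an inhibitor of the same pathway, had 37.5, 74.9 and 205. Of 8 receptor and signalling genes, 4 were higher in the macrophage-like class and 2 in the fibroblast-like class, the latter a share near that of all genes. The GPI anchor list was flat, with 1 gene higher and 1 lower of 15 in either class, and medians of -0.12 and -0.07. Of 6 adventitial stroma genes in fibroblast-like cells, 5 were higher, among them Pdgfra, which also served to name the class. The sixth, Cd55, a GPI-anchored complement regulator, was lower, at 95.9 against 714 CPM.

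Over the 9 clusters of at least 100 cells, the genes most like each member were found by Pearson's r of log2 levels among 6344 candidates. For Ly6a they were Gga2 (0.91), Wdr60 (0.91) and Setd4 (0.90), and for Ly6e Ralgds (1.00), Tmem37 (0.99) and Aspa (0.99). For Ly6c1, Tcea3, Olfml3 and Plac8 each reached 1.00, since 1 fibroblast-like cluster carries most of the range. Among members, r was -0.60 for Ly6a and Ly6e, -0.16 for Ly6a and Ly6c1 and 0.62 for Ly6c1 and Ly6e. These describe 9 points that share a library and its free RNA.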

How the data were processed

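The authors deposited whole-number UMI counts per gene and barcode from 1 10x Chromium 3′ v3.1 library, made with Cell Ranger 7.0.0 on mm10, per the submitters' processing notes. The counts are not normalized, and the 3 tags are rows of the same matrix, with 21.9% of all UMIs. Barcodes with at least 500 genes, 1000 UMIs and at most 10% mitochondrial UMIs were kept, and doublets called with Scrublet in scanpy 1.11.5 (expected rate 27.9%, 13.6% called) were removed. Cells were clustered with leidenalg 0.10.2 (resolution 0.5, 2000 variable genes, 30 components, 15 neighbours) after 191 listed genes, the members among them, had been left out, and named from marker lists. A cell carried a tag where its UMI count of that tag was at least 2 times a background count (1.4 times for Cafum). The background was the median over all kept cells, or, for Cafum, over cells high in another tag. Tag counts were not scaled to depth: cells with more than 1 tag had a median of 21713 gene UMIs, and cells with none 9301. Levels are summed counts per 1000000 gene UMIs with exact Poisson 95% intervals, shares have exact Clopper-Pearson intervals, and UMIs of droplet RNA free in the suspension are counted with the rest. Comparisons use folds of 2 or more among genes at 5 CPM or more (in either group, or, for list counts, over all cells split or as the mean of both classes), with 1 added in log2 ratios, and no test. The fold calls were tested on simulated counts.

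The members and gene lists were chosen with earlier results of these data known. Named beside the members were family and locus genes at 1 CPM or more, up to 3 list genes of highest level, and the 3 genes most like each member at 20 CPM or more. Genes named in splits of cells by a member were chosen after their values were seen. Alternatives changed doublet and cell filters, resolution, totals, thinning and tag calls. The work used Python 3.11.15, numpy 2.4.6, scipy 1.17.1, pandas 2.3.3, matplotlib 3.10.9 and biopython 1.88.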

Additional observations from a re-analysis of the deposited data

How the results depend on the processing

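The order of the 3 classes was the same under 8 of 8 alternatives for Ly6a, Ly6e, Ly6c1, Ly6c2 and Ly6i and under 7 of 8 for Ly6d, whose fibroblast-like level fell from 0.9455 to 0.135 CPM in cells of 1 tag, below the 0.2503 of macrophage-like cells. No ratio between classes of Ly6a, Ly6e or Ly6c1 changed direction. The Matrigel over Cafum ratios of these genes in fibroblast-like cells were also taken under stricter tag calls. There 2 moved outside their interval and 1 stayed inside, without a change of direction. The Ly6a ratio of macrophage-like over mast cell-like cells, 0.360, became 0.4905 with called doublets kept, 0.345 without barcode filters, 0.416 at 5% mitochondrial UMIs, 0.390 at resolution 1, 0.237 as a mean over single cells, 0.333 without the 50 genes of most UMIs and 0.165 in cells of 1 tag. Fibroblast-like over mast cell-like, Ly6a, 0.749, became 0.712 with doublets, 0.742 at 5% mitochondrial UMIs, 0.781 at resolution 1, 0.723 as a mean over cells, 0.726 without the top 50 genes and 0.837 in cells of 1 tag. For Ly6e the macrophage-like ratio, 11.1, became 8.19 with doublets, 11.5 without filters, 10.03 at 5% mitochondrial UMIs, 12.7 as a mean over cells, 10.3 without the top genes and 13.4 with 1 tag. The fibroblast-like Ly6e ratio, 3.87, became 4.18 as a mean over cells, 3.75 without the top genes and 4.28 with 1 tag, and that of Ly6c1, 42.0, became 54.6 with 1 tag. The causes of these moves were not tested. A fibroblast-like class without adipocyte-led clusters was not run, as 0 clusters were concerned at the main resolution. At resolution 1, a cluster of 636 cells led by Cfd, Hp and Adipoq was unnamed, and so lay outside the fibroblast-like class of that alternative. A cluster of 3700 cells with 7 of 7 mast cell markers, led by haemoglobin genes, was also unnamed there. With doublets kept, a cluster of 2110 cells led by histone genes was unnamed. At 5% mitochondrial UMIs, 1812 cells with 7 of 7 mast cell markers were unnamed, and the macrophage-like class held 1553 cells. The classes compared thus differed in make-up between alternatives. Splits by tag within the groups of cells by Ly6a and Ly6e, and the groups without cells rich in Hbb-bs, S100a8 or S100a9, were added after seeing the data. The minimum over all cells split, or as the mean of both classes, was also chosen after seeing the data, in place of one reached in either group, under which 9 alpha/beta and 3 gamma list genes were higher with Ly6a (8 and 1 otherwise) and 14 and 5 with Ly6e (11 and 2 otherwise). In cells of the Matrigel tag alone, 2 gamma list genes were higher with Ly6a. No paired analysis was possible because there is 1 gene expression library and the result comes from no test. With 1 library nothing shows how levels vary between cultures, and Ly6i, Ly6d and Ly6c2 rest on few UMIs.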
